A study of Arabidopsis thaliana with 15 samples.

Results

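The genes described here are 50 genes of Arabidopsis thaliana roots whose RNA was lower after 2 h in the dye Rose Bengal (RB) than in water, but higher than in water when hydrogen peroxide (H2O2) was added to the dye. They were chosen from the read counts themselves, out of the 14391 genes with deposited counts. Counts were scaled to a common library total (CPM), and 1 was added to each group mean before ratios were taken. A gene entered when its mean with dye and peroxide was at least 10 CPM, when the ratio of RB 2 h to water was at most 0.75, and when the ratio of dye plus peroxide to water was at least 1.33. The first criterion alone was met by 6502 genes, which serve below as the comparison for shares. The rule leaves out 2 loci by name, which are not analysed here.

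All 15 libraries came from roots of wild-type seedlings of the ecotype Columbia-0, 7 days old, grown on agar medium with sucrose under 16 h of light and 8 h of dark at 21 °C. Each of 5 groups had 3 replicates of 30 to 50 pooled seedlings: water for 1 h, 10 µM RB for 1, 2 or 3 h, and 10 µM dye with 5 mM H2O2 for 2 h, called RBH below. All seedlings lay in aqueous solution, and roots were cut from shoots only after the treatment. The labels spell the dye of RBH as MRB without saying what the M stands for. They give the water treatment as 1 h, while the sample names carry a 0, so water and the 2 h groups differ in time as well as in treatment. Roots in peroxide alone are not analysed here, so a ratio of RBH to RB 2 h cannot separate peroxide acting alone from peroxide acting with the dye. The sources used here do not say how the seedlings were lit while they lay in the solutions.

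RB is a photosensitiser: in light it passes energy to oxygen and yields singlet oxygen, a short-lived oxidant that reacts close to where it forms. H2O2 is a milder, longer-lived oxidant that crosses membranes through water channels and also serves plants as a signal. Both feed into transcription through redox-responsive factors, and both can slow growth, for which ribosome production is a main cost. Ribosomal RNA is transcribed in the nucleolus as a long precursor whose spacers are then cut away, and proteins such as NOP56 help to process it.

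Library totals ran from 897728 to 6230975 counts. A count of 0 in 1 library therefore still allows a level of up to 0.481 to 3.34 CPM, depending on the library, by counting error alone. On principal components of all genes, RB 1 h replicate b and RB 2 h replicate a lay apart, at -30.2 and -46.8 on the third component (7.40% of the variance) against -12.1 to 19.0 for the others. The root identity of the tissue was checked with endodermis markers, whose summed level was 567 to 1311 CPM over all libraries. Green-tissue markers, all 18 of them measured, summed to 349 to 1137 CPM. Summed root hair markers, 6 of 7 genes measured, were 162 to 201 CPM in water, 30.8 to 55.0 CPM at RB 2 h and 2.57 to 28.7 CPM in RBH. Summed phloem markers, all 4 of them measured and none at 0, were 160 to 221 CPM in RBH and 244.5 to 353.5 CPM in the 12 other libraries. The part of these markers in the members' results was not tested. In such bulk samples, fewer cells of a type and less RNA per cell cannot be told apart.

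By the way they were chosen, all 50 genes were lower at RB 2 h and higher in RBH than in water, and this is a description only. The median ratio was 0.650 for RB 2 h to water, 1.66 for RBH to water and 2.64 for RBH to RB 2 h. The widest span was in the last of these, from 1.85 to 33.2. Over the 6502 comparison genes the medians were 1.11, 1.04 and 0.935. At least a 2-fold excess of RBH over RB 2 h was seen in 42 of the 50, against 5.01% of the 6502 genes. RBH was at least 2-fold above water in 14 of the 50, against 13.4%. The limits of the rule already put RBH above RB 2 h and above water, so nothing is read from these shares. Scaling moved the ratios: with library totals adjusted by TMM, which discounts genes of extreme ratio, the median log2 ratio of the 6502 genes went from 0.15 to 0.01 for RB 2 h to water and from 0.06 to 0.12 for RBH to water. Under that scaling the rule took 101 genes, among them all 50 described here.

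The single libraries show how firmly each side of the pattern held. In 47 of the 50, every RBH library was above every RB 2 h library, against 14.7% of the 6502 genes. Every RBH library was above every water library in 33, against 25.5%, and every RB 2 h library was below every water library in 25, against 16.5%. Both held together in 21 members, against 0.754%. Since these 9 libraries chose the members, nothing is read from these shares. The other 6 libraries were not used by the rule. All 3 RBH libraries were above all 3 RB 1 h libraries in 37 members (17.4% of the 6502 genes) and above all 3 RB 3 h libraries in 40 (17.5%). The rule did use the RBH side of both comparisons and put it above water, so nothing is read from these 2 shares. In 30 members the 3 RBH libraries were above all 12 others, against 5.58%. These 12 include the water and RB 2 h libraries that chose the members, so nothing is read from this share either. The map of all members by library shows the high RBH levels as a red block on the right beside mostly blue dye columns.

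**Figure D1:**
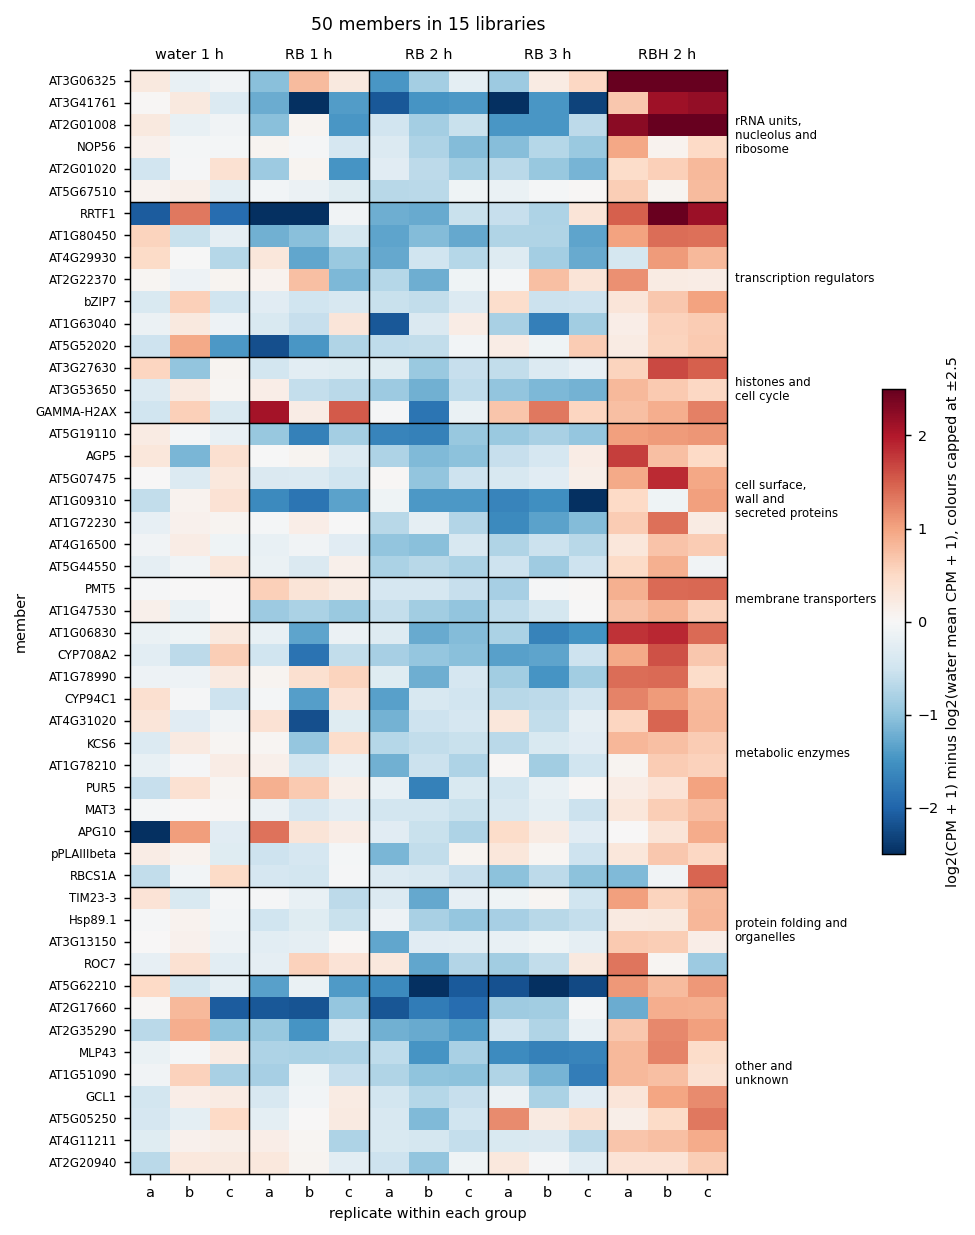
Level of each of the 50 members in each of the 15 libraries, as log2(CPM + 1) minus log2 of the water mean CPM + 1, with members grouped by role and colours capped at 2.5 in either direction. RBH columns are red for nearly every member, RB 2 h columns are mostly blue, with single libraries above the water mean in some members, and RB 1 h and RB 3 h columns are mixed.

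**Figure D2:**
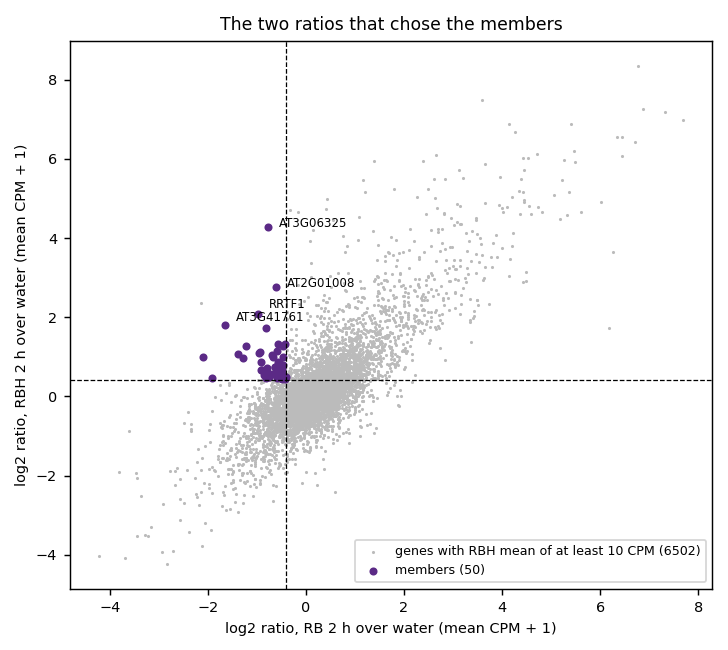
The 6502 genes with an RBH mean of at least 10 CPM, plotted by the log2 ratio of RB 2 h to water (x) and of RBH to water (y), each from mean CPM + 1, with dashed lines at the ratios 0.75 and 1.33. The 50 members fill the upper left corner, and AT3G06325, AT2G01008, RRTF1 and AT3G41761 stand highest among those named.

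The members with the largest excess in RBH lie in the ribosomal RNA units. The libraries were primed on poly(A) tails, so levels at these loci cannot be read as amounts of rRNA or of its precursor. Of the 50 genes, 4 belong to 2 such units, 1 on chromosome 2 and 1 on chromosome 3, by their order in the TAIR10.1 annotation. Transcribed loci that come before an 18S rRNA locus account for 3 of them, and the fourth, AT2G01020, is the 5.8S rRNA locus of the chromosome 2 unit. None of the 3 is directly next to an 18S locus. The next annotated locus is a microRNA precursor for AT2G01008 and AT3G06325, and AT3G06325 for AT3G41761. Values below are given for replicates a, b and c in that order. AT3G06325, an annotated long non-coding RNA before the 18S locus AT3G41768, had 2.23, 1.41 and 1.58 CPM in water, 0.327, 3.77 and 2.26 at RB 1 h, 0, 0.519 and 1.301 at RB 2 h, 0.456, 2.14 and 2.93 at RB 3 h and 48.7, 59.8 and 48.6 in RBH. Its raw counts were 2, 2 and 3 in water, 0, 1 and 3 at RB 2 h, and 73, 102 and 303 in RBH. The locus was thus near the counting limit in 12 libraries and plainly counted in the 3 with peroxide, with a ratio of 33.2 between RBH and RB 2 h and of 19.5 between RBH and water.

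AT3G41761, a non-coding RNA locus next to AT3G06325, had 7.80, 9.13 and 5.798 CPM in water, 2.61, 0 and 2.26 at RB 1 h, 0.969, 2.07 and 2.17 at RB 2 h, 0.456, 2.14 and 0.733 at RB 3 h and 12.7, 36.3 and 38.5 in RBH. Every dye library was below every water library, and every RBH library was above them all. AT2G01008, a locus before the 18S gene of chromosome 2, had 2.23, 1.41 and 1.58 CPM in water, 0.327, 1.88 and 0 at RB 1 h, 0.969, 0.519 and 0.868 at RB 2 h, 0, 0 and 0.733 at RB 3 h and 12, 22.9 and 18.1 in RBH. It was detected at no more than 2.23 CPM outside RBH, and the annotation gives it as protein-coding. The ratio of RBH to RB 2 h was 11.02 for AT3G41761 and 10.5 for AT2G01008. Summed over these 3 leading loci, the level was 8.96 to 12.3 CPM in water, 0.911 to 5.65 CPM over the 9 dye libraries and 73.3 to 119 CPM in RBH, with no overlap between the 3 ranges.

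The mature rRNA loci of the same units differed less. AT2G01020, the 5.8S locus, had 10.03, 14.1 and 19.0 CPM in water, 7.19, 15.1 and 4.53 at RB 1 h, 11.6, 8.82 and 7.37 at RB 2 h, 8.66, 6.94 and 5.86 at RB 3 h and 19.99, 22.3 and 26.0 in RBH, so that RBH lay above water in every library but by a ratio of only 1.55. The 18S locus of the same unit, AT2G01010, was at 14.3 ± 4.55 CPM in water, 5.99 ± 1.15 at RB 2 h and 12.5 ± 0.895 in RBH (SD, n = 3 here and below), which puts it on the low side with dye but not above water with peroxide. The 18S locus of chromosome 3, AT3G41768, was at 8.10 ± 3.21 CPM in water, 9.14 ± 1.57 at RB 2 h and 22.1 ± 1.86 in RBH, the reverse combination. AT3G06355, a non-coding RNA that overlaps the 5.8S gene of chromosome 3, narrowly missed the rule, with 473 ± 130 CPM in water, 257 ± 35.7 at RB 2 h and 612 ± 57.8 in RBH. The units exist in many near-identical copies, only some of which are in the assembly, and AT3G06325 is annotated antisense to a neighbouring locus. The sources used here do not say whether strand was used in counting, so the split of reads among these loci is uncertain.

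**Figure D3:**
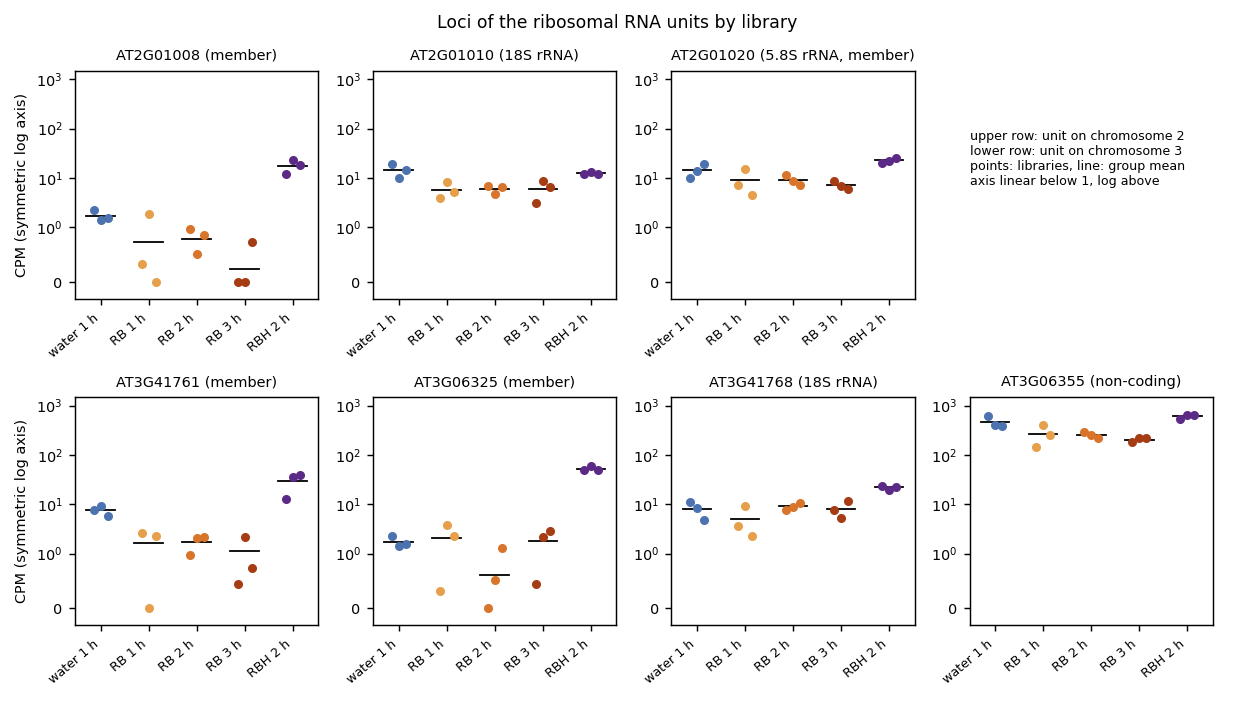
Level in CPM of the 7 measured loci of the 2 ribosomal RNA units in each library (points) with group means (lines), on a symmetric log axis that is linear below 1. The 3 loci that precede an 18S gene (AT2G01008, AT3G41761 and AT3G06325) are at 0 to 9.13 CPM in water and dye and at 12 to 59.8 CPM in RBH, while the 18S loci span a narrower range.

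Proteins of ribosome production supply a further pair of members. NOP56 is a core protein of the small nucleolar particles that guide methylation and cutting of precursor rRNA. Its level was 336, 301 and 300.4 CPM in water, 329, 307 and 232 at RB 1 h, 247, 184 and 148 at RB 2 h, 148, 190.0 and 164 at RB 3 h and 615, 333 and 442 in RBH. RB 2 h and RB 3 h were below water in every library, and RBH was above RB 2 h in every library, although replicate b of RBH lay just under the highest water library. Without RBH replicate a the ratio of RBH to water was 1.24 and NOP56 left the list. AT5G67510, a large-subunit ribosomal protein of the L26 family, annotated by its SH3-like fold, had 275, 280.3 and 218 CPM in water, 246, 232 and 208 at RB 1 h, 159.8, 162 and 239.9 at RB 2 h, 230.1, 249 and 265 at RB 3 h and 395, 271 and 445 in RBH, and its RB 2 h replicate c and RBH replicate b both lay within the water range. It was kept in 4 of the 9 lists made with 1 library left out.

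The nearest relatives of these proteins, picked after the members' values were seen, did not meet the rule. FIB2, a fibrillarin of the same particles as NOP56, was at 298 ± 40.7 CPM in water, 145 ± 58.5 at RB 2 h and 345 ± 78.5 in RBH, which is the dye side of the pattern only. FIB1 had ratios to water of 0.907 at RB 2 h and 1.08 in RBH, and both NOP58 genes were between 0.854 and 1.06. AT3G12860, a NOP56-like gene of few counts, had 0.574 and 1.11, again the dye side alone. RPL26A, the relative of AT5G67510, had 1.101 and 1.04. Of the 19 measured relatives of 9 members, none was itself a member.

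Transcription regulators number 7 among the members. RRTF1, an ERF-family factor named for its response to redox changes, had 2.23, 33.0 and 2.64 CPM in water, 1.31, 0 and 11.9 at RB 1 h, 4.84, 4.67 and 8.24 at RB 2 h, 8.20, 6.94 and 16.1 at RB 3 h and 37.3, 74.4 and 58.9 in RBH. All RBH libraries were above the other 12, by a ratio of 8.37 over RB 2 h. The dye side rests on water replicate b alone: without it the ratio of RB 2 h to water was 2.02, and that of RBH to water 16.9. AT5G52020, which carries the same AP2-type DNA-binding domain, had 18.9, 54.1 and 9.49 CPM in water, 5.23, 9.42 and 15.8 at RB 1 h, 17.4, 17.6 and 26.0 at RB 2 h, 31.2, 25.6 and 43.2 at RB 3 h and 32.0, 41.0 and 44.0 in RBH, and its highest library of all was again water replicate b. With a ratio of 0.7495 it was the member closest to the limit for dye, and it was kept in 3 of the 9 leave-one-out lists. Without water replicate b the ratio of RB 2 h to water turned to 1.405 and that of RBH to water rose from 1.40 to 2.63.

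AT1G80450, a VQ-motif protein of the kind that binds WRKY factors, had 13.4, 5.62 and 7.38 CPM in water, 3.27, 3.77 and 6.22 at RB 1 h, 2.91, 3.63 and 3.04 at RB 2 h, 4.78, 4.80 and 2.93 at RB 3 h and 18.7, 24.6 and 24.6 in RBH, so that RBH was above all other libraries and RB 2 h below all water libraries. bZIP7 had 15.6, 31.6 and 14.2 CPM in water, 16.7, 14.1 and 15.3 at RB 1 h, 13.6, 13.0 and 16.1 at RB 2 h, 28.2, 13.9 and 13.9 at RB 3 h and 25.3, 33.4 and 41.9 in RBH, and its dye ratio became 0.955 without water replicate b. AT1G63040, annotated only as a transcribed pseudogene but grouped here with the regulators, had 6.68, 9.13 and 6.85 CPM in water, 5.56, 4.71 and 9.62 at RB 1 h, 0.969, 5.71 and 8.68 at RB 2 h, 3.87, 1.60 and 3.66 at RB 3 h and 8.66, 11.7 and 12.4 in RBH. RB 2 h ran from below the water libraries to within them, and RB 3 h lay below them all. AT4G29930, a bHLH-domain protein, and AT2G22370, a subunit of the Mediator complex that links factors to RNA polymerase II, had RBH means of 13.4 ± 6.64 and 13.2 ± 5.84 CPM against 8.48 ± 3.76 and 8.53 ± 0.698 in water.

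Water replicate b was high in several members. It was at least 2-fold above the higher of the other water libraries, on CPM + 1, in RRTF1, AT5G52020, AT2G35290 and APG10, that is in 4 of the 50 members and in 1.08% of the 6502 genes, while replicates a and c of water were so in none of the members. The rule used the water libraries, and a single high one lowers the dye ratio, so nothing is read from this share. CYP94B3, a jasmonate-inactivating enzyme that is not a member, had 50.1, 149.7 and 20.03 CPM in water replicates a, b and c. Without this library 11 of the 50 members left the list, against 14 without water replicate a and 13 without water replicate c.

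Chromatin and cell cycle gave 3 members. AT3G53650, annotated in the histone superfamily, had 47.9, 71.0 and 63.2 CPM in water, 68.0, 39.6 and 37.9 at RB 1 h, 32.0, 25.9 and 38.6 at RB 2 h, 30.1, 27.2 and 26.4 at RB 3 h and 107, 96.7 and 87.3 in RBH. Its 3 groups of the rule did not overlap in any library. GAMMA-H2AX, the H2A variant that is phosphorylated around DNA breaks, had 9.84 ± 4.88 CPM in water, 29.0 ± 17.0 at RB 1 h, 6.81 ± 4.13 at RB 2 h, 19.1 ± 6.15 at RB 3 h and 20.5 ± 3.91 in RBH. Its RB 2 h libraries, at 9.69, 2.07 and 8.68 CPM, overlapped those of water, at 6.68, 15.5 and 7.38 CPM. The dye ratio was 0.973 without water replicate b and 0.939 without RB 2 h replicate b, and it left the list in both cases. Its close relative H2AX-A stayed between 0.968 and 1.03 of water in the 2 h groups. AT3G27630, annotated as an SMR3-like inhibitor of cyclin-dependent kinases, the enzymes that drive cell division, had 20.5 ± 10.2 CPM in water, 13.4 ± 3.05 at RB 2 h and 52.4 ± 19.2 in RBH.

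Cell surface, wall and secreted proteins number 7. AT5G19110, an aspartyl protease family protein, had 59.0, 49.2 and 44.8 CPM in water, 25.8, 15.1 and 27.7 at RB 1 h, 15.5, 15.04 and 26.0 at RB 2 h, 26.4, 28.8 and 25.6 at RB 3 h and 105, 108 and 111 in RBH. Every dye library at every time was below every water library, and the RBH libraries, which differed by little among themselves, were above water at a ratio of 2.09. AT4G16500, a cystatin-fold protein of the kind that inhibits papain-type proteases, had 253, 308 and 249 CPM in water, 236, 253 and 222 at RB 1 h, 137, 129.7 and 204 at RB 2 h, 159, 185 and 166 at RB 3 h and 329.9, 441 and 422 in RBH. AT5G44550, an integral membrane protein of the UPF0497 family, had 233, 256 and 330.5 CPM in water, 243, 211 and 298 at RB 1 h, 158, 169.6 and 158 at RB 2 h, 192, 146 and 189.8 at RB 3 h and 383, 506 and 259 in RBH. The cystatin-fold protein had no overlap among water, RB 2 h and RBH, whereas replicate c of RBH put AT5G44550 inside the water range.

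Copper-binding cupredoxin-fold proteins gave a pair. AT5G07475 had 62.4, 48.5 and 73.8 CPM in water, 47.4, 48.1 and 43.0 at RB 1 h, 62.96, 30.6 and 42.5 at RB 2 h, 46.7, 50.2 and 68.2 at RB 3 h and 120.0, 228 and 121 in RBH, so that RBH was above water in every library while RB 2 h replicate a was not below it. AT1G72230 had 46.8, 58.3 and 56.4 CPM in water, 52.0, 60.3 and 53.2 at RB 1 h, 32.9, 45.6 and 32.1 at RB 2 h, 17.1, 20.8 and 24.9 at RB 3 h and 84.0, 141 and 61.9 in RBH. Its dye libraries showed a stepwise order, with 1 h at the water level, 2 h below it and 3 h below 2 h, and no library crossed these steps. AGP5, an arabinogalactan protein of the extracellular matrix, was at 8.92 ± 4.71 CPM in water, 4.13 ± 0.636 at RB 2 h and 20.3 ± 10.2 in RBH, and AT1G09310, of unknown function, at 15.8 ± 5.34, 8.31 ± 5.39 and 23.5 ± 9.23.

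Both membrane transporters among the members had separated groups. AT1G47530, of the MATE family of efflux carriers, had 139, 113 and 128 CPM in water, 67.3, 72.5 and 66.2 at RB 1 h, 83.3, 69.0 and 63.8 at RB 2 h, 80.9, 93.4 and 126 at RB 3 h and 209.9, 231 and 190.3 in RBH, lower than water in all libraries of 1 h and 2 h but not of 3 h. PMT5, which imports polyols and sugars with protons, had 75.7, 77.3 and 78.0 CPM in water, 116, 97.0 and 88.8 at RB 1 h, 57.1, 57.6 and 51.2 at RB 2 h, 43.1, 75.3 and 78.4 at RB 3 h and 143, 207 and 209 in RBH. Its water libraries agreed closely, RB 1 h lay above them, RB 2 h below them, and RBH above all others. The plots of 12 members by library show these 2 shapes side by side.

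**Figure D4:**
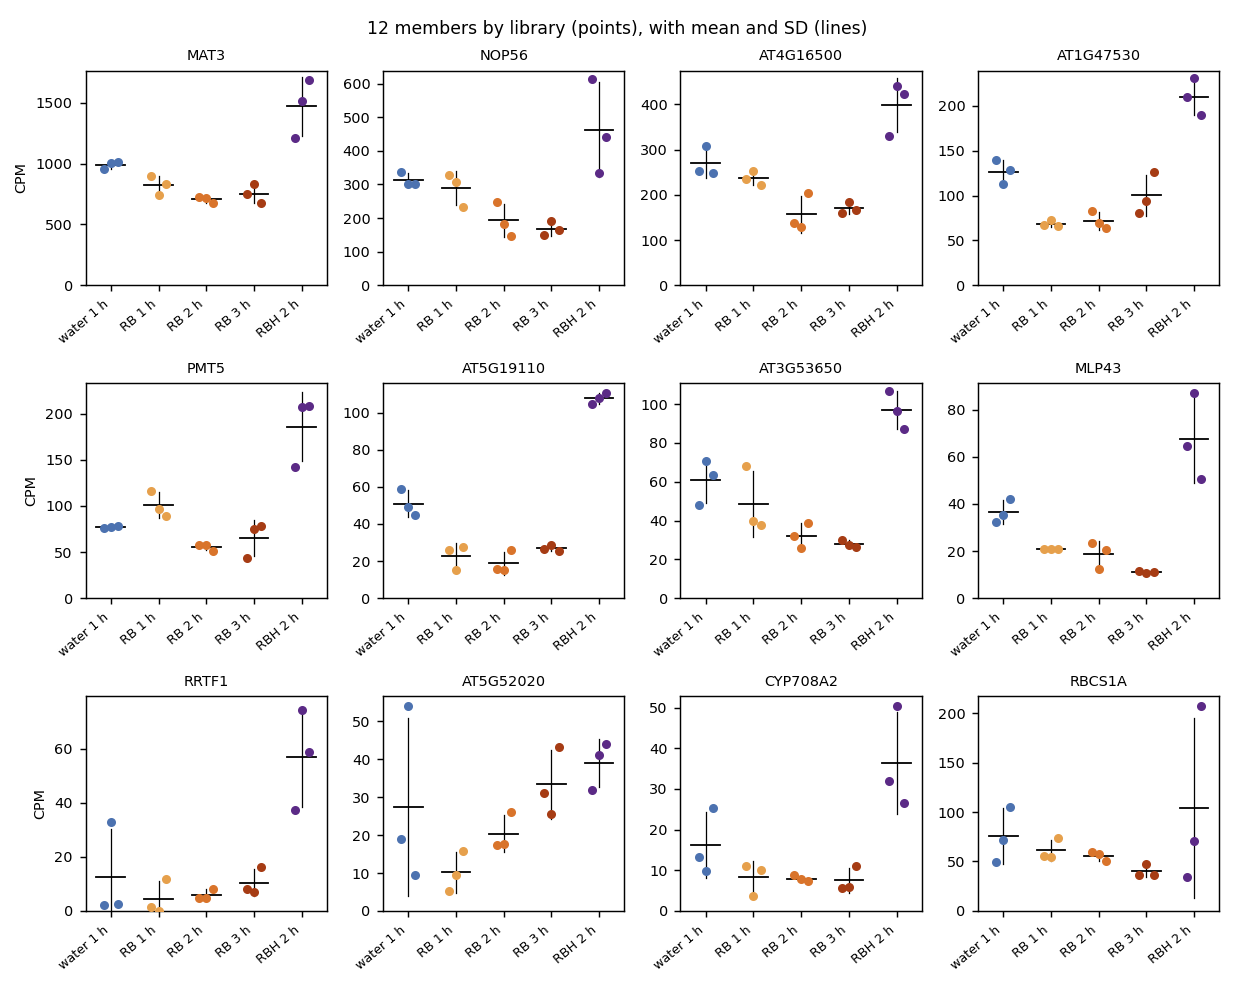
CPM of 12 members in each of the 15 libraries (points), with the mean and SD of each group of 3 (lines) and axes from 0. MAT3, AT5G19110, AT1G47530 and PMT5 have RBH libraries above all others, RRTF1 and AT5G52020 have 1 high water library, and RBCS1A has 1 high RBH library.

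Metabolic enzymes are the largest role, with 12 members. MAT3, an enzyme that makes S-adenosylmethionine, the cell's methyl donor and the precursor of ethylene and polyamines, had 955, 1002 and 1012 CPM in water, 899, 741 and 829 at RB 1 h, 725, 718 and 675 at RB 2 h, 749, 834 and 679 at RB 3 h and 1207, 1516 and 1687 in RBH. All 9 dye libraries were below the lowest water library, and all RBH libraries were above the highest. The 3 other genes for this enzyme were not members. MAT4 had ratios of 0.797 and 1.34 and missed the dye limit, MAT1 had 0.649 and 1.06 and missed the peroxide limit, and MAT2 was at 0.915 and 0.997.

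Enzymes of lipid and hormone metabolism had lower counts. CYP94C1, which oxidises the active jasmonate and so inactivates it, had 8.91, 6.32 and 4.22 CPM in water, 6.21, 1.88 and 8.49 at RB 1 h, 1.94, 4.67 and 4.34 at RB 2 h, 3.65, 3.74 and 4.40 at RB 3 h and 16.7, 14.7 and 12.2 in RBH. Its RBH libraries exceeded all 12 others, and RB 2 h did not reach above the middle water library. CYP94B3, of the same inactivation route, had ratios of 0.265 and 0.776, low with dye but not above water with peroxide, and CYP94B1 had 1.91 and 2.67, above water in both. KCS6, which elongates fatty acids for surface waxes, was at 10.1 ± 2.11 CPM in water, 6.18 ± 0.350 at RB 2 h and 17.5 ± 1.23 in RBH, and kept its place in all leave-one-out lists. The patatin-like phospholipase pPLAIIIbeta had 23.4, 21.8 and 16.3 CPM in water, 14.1, 15.1 and 19.8 at RB 1 h, 8.72, 13.0 and 21.7 at RB 2 h, 25.1, 21.4 and 13.9 at RB 3 h and 25.3, 33.4 and 29.9 in RBH and kept it in 4.

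CYP708A2 hydroxylates thalianol, a triterpene made in roots by a gene cluster on chromosome 5. It was at 16.2 ± 8.10 CPM in water, 7.96 ± 0.689 at RB 2 h and 36.3 ± 12.5 in RBH. Its cluster neighbour CYP705A5 did not share this pattern, at 1.99 ± 2.86, 0.607 ± 0.655 and 1.02 ± 0.638 CPM, levels of a few counts per library. AT1G06830, a glutaredoxin-family protein of the class that reduces disulfides with glutathione, had 3.34, 3.51 and 4.74 CPM in water, 3.27, 0.942 and 3.39 at RB 1 h, 2.91, 1.04 and 1.301 at RB 2 h, 1.82, 0.534 and 0.733 at RB 3 h and 15.99, 17.0 and 12.04 in RBH. Every RBH library was above every other library, and the ratio over RB 2 h was 5.83.

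The acyltransferase-family protein AT1G78990 had 5.57, 5.62 and 7.38 CPM in water, 6.54, 8.48 and 9.62 at RB 1 h, 4.84, 2.07 and 4.34 at RB 2 h, 2.96, 1.60 and 2.93 at RB 3 h and 18, 18.2 and 8.83 in RBH, higher at 1 h of dye than at 2 h or 3 h in every library. PUR5, of purine synthesis, was at 12.2 ± 4.2 CPM in water, 7.63 ± 3.98 at RB 2 h and 18.5 ± 6.28 in RBH. APG10, of histidine synthesis, had 0, 16.2 and 5.798 CPM in water, 20.3, 9.42 and 8.49 at RB 1 h, 5.81, 4.67 and 3.90 at RB 2 h, 10.5, 8.54 and 5.86 at RB 3 h and 7.33, 9.38 and 14.9 in RBH, and its mean of 10.5 CPM in RBH was the closest to the floor. With replicate a at 0 and replicate b at 16.2, the water libraries spanned all those of RB 2 h and RBH, whereas RBH was above RB 2 h in every library. The hydrolase-fold proteins AT1G78210 and AT4G31020 had RBH means of 50.7 ± 10.5 and 16.8 ± 5.95 CPM.

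RBCS1A, a small subunit of the carbon-fixing enzyme Rubisco, is a gene of green tissue. It had 49.0, 71.7 and 105 CPM in water, 55.9, 54.6 and 73.5 at RB 1 h, 59.1, 57.1 and 50.3 at RB 2 h, 36.7, 47.5 and 36.6 at RB 3 h and 34.7, 70.9 and 207 in RBH. RBH replicate c alone carried the peroxide side, and without it the ratio of RBH to water was 0.704. The summed level of all 18 green-tissue markers was 543 and 668 CPM in RBH replicates a and b and 1137 CPM in replicate c, against 550 to 810 CPM in water and 514 to 857 at RB 2 h. None of these markers was at 0 in RBH. RBCS2B and RBCS3B were also highest in that library, at 24.7 and 46.7 CPM, but RBCS1B was not, at 2.09 CPM there and 7.91 CPM in water replicate c. Their part in the result was not tested.

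Protein folding and organelle proteins gave 4 members. Hsp89.1, an organellar chaperone of the HSP90 family, had 111, 122 and 109 CPM in water, 80.4, 92.3 and 77.5 at RB 1 h, 105, 64.8 and 58.1 at RB 2 h, 64.0, 69.9 and 74.8 at RB 3 h and 133, 135 and 203 in RBH, with RBH above water in every library, but at a ratio of 1.17 without RBH replicate c. ROC7, a cyclophilin that helps proline bonds to turn during folding, had 6.68, 10.5 and 6.32 CPM in water, 6.54, 12.2 and 10.2 at RB 1 h, 9.69, 2.59 and 4.34 at RB 2 h, 3.87, 4.80 and 9.53 at RB 3 h and 21.3, 8.21 and 3.69 in RBH. Its RBH libraries ran from below the water range to well above it, and it was kept in 3 of 9 leave-one-out lists. TIM23-3, a subunit of the mitochondrial import channel, was at 7.67 ± 2.22 CPM in water, 4.97 ± 2.09 at RB 2 h and 14.2 ± 2.47 in RBH, while its relatives TIM23-1 and TIM23-2 stayed between 0.823 and 0.958 of water. AT3G13150, a TPR-like protein, was at 29.9 ± 2.46, 20.2 ± 7.47 and 42.6 ± 7.90 CPM.

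A last group of 9 has other or unknown functions. AT5G62210, annotated as an embryo-specific protein of the ATS3 type, had 15.6, 7.73 and 8.96 CPM in water, 3.60, 9.42 and 3.39 at RB 1 h, 2.91, 0.519 and 1.74 at RB 2 h, 1.59, 0.534 and 1.47 at RB 3 h and 24.0, 19.3 and 24.1 in RBH. It had the lowest dye ratio of all members, 0.231, and an RBH level above all other libraries. MLP43, a major latex protein-like member of a ligand-binding family, had 32.3, 35.1 and 42.2 CPM in water, 20.9, 20.7 and 20.9 at RB 1 h, 23.2, 12.4 and 20.4 at RB 2 h, 11.6, 10.7 and 10.99 at RB 3 h and 64.6, 87.3 and 50.4 in RBH. Replicates of water, RB 1 h and RB 3 h agreed closely, with each of these groups below the one before and RBH above them all. AT2G35290, an uncharacterised protein, had 25.6, 78.0 and 20.03 CPM in water, 20.9, 14.1 and 31.1 at RB 1 h, 17.4, 16.6 and 14.7 at RB 2 h, 29.4, 24.0 and 35.9 at RB 3 h and 66.0, 95.5 and 85.2 in RBH, where water replicate b again lay apart.

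AT2G17660, of the family of the immune regulator RIN4, had 7.80, 14.1 and 1.05 CPM in water, 0.981, 0.942 and 3.39 at RB 1 h, 0.969, 1.56 and 1.301 at RB 2 h, 3.65, 3.74 and 7.33 at RB 3 h and 2.67, 15.2 and 14.9 in RBH. Both its water and its RBH libraries spanned more than 5-fold, and it left the list without RBH replicate b or c or water replicate c. AT5G05250, uncharacterised, had 12.3, 14.1 and 24.2 CPM in water, 14.1, 17.0 and 19.8 at RB 1 h, 12.6, 7.26 and 11.7 at RB 2 h, 39.4, 19.8 and 22.7 at RB 3 h and 18.7, 24.0 and 43.7 in RBH, with RB 3 h replicate a above all but 1 RBH library. AT2G20940, a predicted transmembrane protein, had 46.8, 89.9 and 88.5 CPM in water, 90.9, 79.1 and 62.2 at RB 1 h, 52.3, 37.3 and 69.8 at RB 2 h, 90.9, 73.1 and 62.3 at RB 3 h and 96.0, 95.5 and 115 in RBH, and its ratio of 1.358 was the closest of all members to the peroxide limit. The remaining members of the group, AT4G11211, GCL1 and AT1G51090, had RBH means of 62.4 ± 5.35, 54.5 ± 16.1 and 11.95 ± 2.02 CPM against 35.7 ± 5.86, 29.5 ± 7.23 and 7.20 ± 3.80 in water.

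The limits of the rule cut through a continuum. Just inside the dye limit of 0.75 stood AT5G52020 at 0.7495 and AT5G07475 at 0.7412, and just outside it AT1G52905 at 0.7504 and RPI2 at 0.7544. At the peroxide limit of 1.33, AT2G20940 at 1.358 and ROC7 at 1.365 were inside, and AT2G33847 at 1.329 and AT1G09200 at 1.325 outside. At the floor of 10 CPM, APG10 at 10.55 and AT1G63040 at 10.92 were inside, and SVB at 9.952 and AT5G39890 at 9.761 outside. With 1 of the 9 libraries left out at a time, 21 members stayed in all 9 lists and a further 8 in 8 of them. The 21 include the 3 loci before the 18S genes, MAT3, PMT5, AT1G47530, AT5G19110, AT4G16500, AT3G53650, MLP43, AT1G72230, CYP708A2, CYP94C1 and KCS6.

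Whether the members changed with time in the dye can be tested, because the rule used neither RB 1 h nor RB 3 h. Between these times, 7 members fell and 1 rose, out of 50 tested, by edgeR's quasi-likelihood test (Benjamini-Hochberg adjustment over 9891 genes, threshold 0.05). Among all genes tested, 8.34% fell and 9.40% rose, or 17.7% in either direction, so the total of 8 members is close to the background of all genes. The median log2 fold change from 1 h to 3 h was -0.28 for the members and -0.04 for all genes tested, and 34 of the 50 were below 0. All 3 libraries of 3 h were below all 3 of 1 h in 13 members and above them in 3, against 18.9% and 19.7% of the 6502 genes.

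The firmest of these calls was the cupredoxin-fold protein AT1G72230, whose 55.1 ± 4.50 CPM at 1 h fell to 20.9 ± 3.92 at 3 h. Its log2 fold change was -1.41 with a standard error (SE) of 0.28 and an edgeR adjusted p of 0.00068. It was called in all 12 alternative fits, with adjusted p from 9.59e-05 to 0.0124. The next were the acyltransferase-family AT1G78990 (log2 fold change -1.61, SE 0.46, edgeR adjusted p = 0.0154) and the histone-family AT3G53650 (-0.80, SE 0.24, edgeR adjusted p = 0.0206). NOP56 fell by 0.79 on the log2 scale (SE 0.24, edgeR adjusted p = 0.0235), from 329, 307 and 232 CPM to 148, 190.0 and 164 CPM with no overlap.

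AT5G62210 fell by 1.87 on the log2 scale (SE 0.59, edgeR adjusted p = 0.0279), MLP43 by 0.88 (SE 0.29, edgeR adjusted p = 0.0340) and PMT5 by 0.64 (SE 0.22, edgeR adjusted p = 0.0468). The only member that rose was AT5G52020, the AP2-domain protein, by 1.79 (SE 0.49, edgeR adjusted p = 0.0170), from 5.23, 9.42 and 15.8 CPM to 31.2, 25.6 and 43.2 CPM. AT1G47530, the MATE carrier, was next in that direction, with 0.55 (SE 0.20) and an edgeR adjusted p of 0.0673. With either RB 1 h replicate a or RB 3 h replicate b or c left out, 3 members were called, all of them among the 8, and 6 of the 8 were called without RB 1 h replicate c. Without RB 3 h replicate a 4 were called, and without RB 1 h replicate b 5, in each case with AT1G47530 as higher at 3 h and the others, 3 and 4, among the 8. The authors' deposited table marks 4 members between these times, AT5G52020 as higher at 3 h and AT1G72230, AT5G62210 and AT1G78990 as lower, among 993 marked genes.

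**Figure D5:**
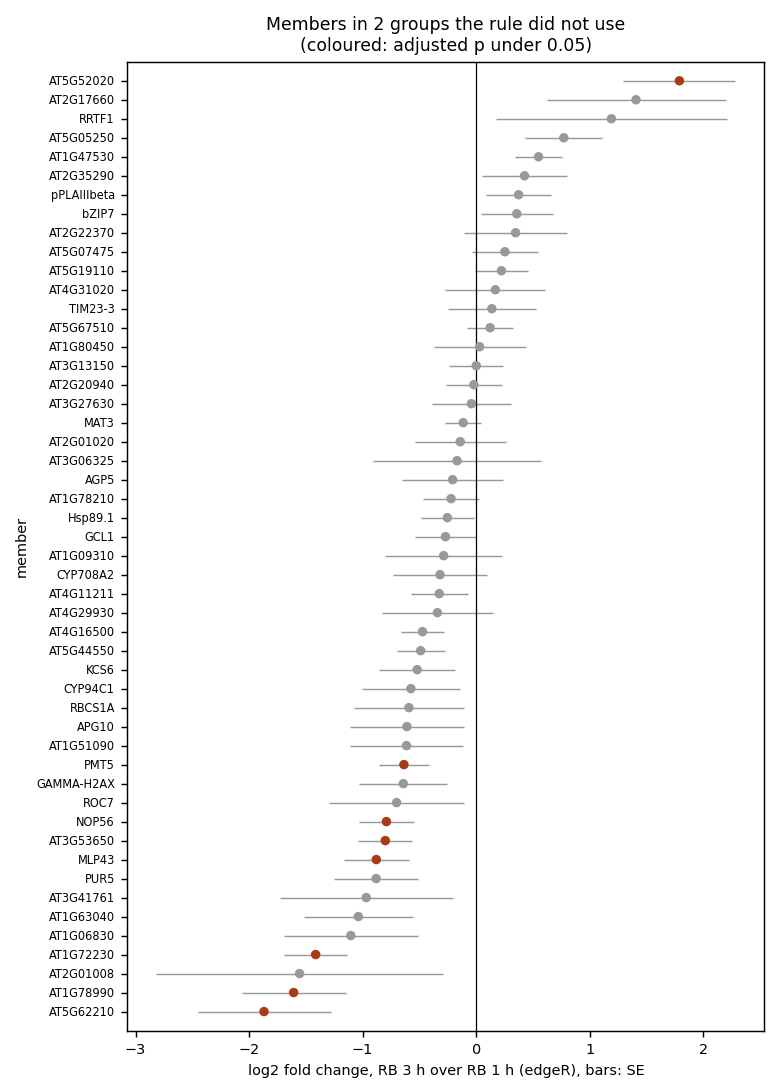
Fitted log2 fold change of RB 3 h over RB 1 h with its SE for each of the 50 members, from edgeR with all 15 libraries. The coloured points are the 8 members with an adjusted p under 0.05, of which AT5G52020 is above 0 and 7 are below 0.

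Against water, the dye groups at 1 h and 3 h show whether the low level at 2 h was seen at other times. These comparisons share the water libraries with the rule, so their counts describe the members and support nothing. At 1 h the ratio to water had a median of 0.824 over the members and 1.1 over the 6502 genes, and at 3 h 0.732 and 1.1. All 3 libraries lay below all 3 of water in 8 members at 1 h (8.46%) and in 20 at 3 h (22.1%). A ratio of at most 0.75 was reached by 18 members at 1 h (7.35% of the 6502 genes) and by 26 at 3 h (20.7%). Taking these together with 2 h, 15 members reached this limit of 0.75 at all 3 times and 3 at 1 and 2 h. It was reached by 11 at 2 and 3 h, and by 21 at 2 h alone of the 3 times. A ratio over the limit is not a return to the water level. Among these 21, the ratio at 3 h was 0.762 for MAT3, just over the limit, and 1.86 for GAMMA-H2AX. The rule set the low level at 2 h, and the same split was not made for other genes low at RB 2 h. It therefore cannot be read as a trait of the members.

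In the edgeR fit (adjusted p under 0.05), 5 members were called lower than water at 1 h (2.32% of all genes tested) and 0 higher (3.07%), and 21 were called lower at 3 h (16.6%) and 0 higher (16.2%). Without adjustment (edgeR p under 0.05), 1 member was higher than water at 1 h, GAMMA-H2AX, and 0 at 3 h, and DESeq2 called 0 higher at either time. GAMMA-H2AX was called higher at 1 h in 4 of the 12 alternative fits (6 libraries alone, without water replicate b, without RB 1 h replicate b, and without both RB 1 h replicate b and RB 2 h replicate a), and AT5G52020 higher at 3 h in 1 of 12, without water replicate b. The 5 at 1 h were the aspartyl protease AT5G19110 (log2 fold change -1.3), the MATE carrier AT1G47530 (-1.07), AT1G09310 (-1.98), MLP43 (-1.02) and the rRNA-unit locus AT3G41761 (-2.10). All but AT1G47530 were again called at 3 h, where it just missed the threshold (log2 fold change -0.52, edgeR adjusted p = 0.05003). AT1G47530 was called lower at 3 h with the 6 libraries alone and without RB 3 h replicate c. The same held without both RB 1 h replicate b and RB 2 h replicate a. At 3 h the list also held NOP56 (-1.07), MAT3 (-0.57), Hsp89.1 (-0.89), AT4G16500 (-0.84), the 5.8S locus AT2G01020 (-1.17) and AT5G62210 (-3.13). By role, 4 of the 6 rRNA-unit, nucleolar and ribosomal members, 5 of the 7 surface and secreted ones and 4 of the 12 enzymes were among the 21. So were 2 of the 7 regulators, 1 of the 3 histone and cell cycle members and 1 of the 4 folding and organelle members. The group of other or unknown function had 4 of its 9 among them. Neither transporter was. At 1 h, 2 members were called without RB 1 h replicate a, 3 without RB 1 h replicate c, and 9 without both RB 1 h replicate b and RB 2 h replicate a, of which 8 were lower and 1 higher. At 3 h, 13 were called without RB 3 h replicate b. Of the calls at 1 h, AT3G41761 was lost in 7 of 11 alternative fits, among them all 6 that left out 1 library, MLP43 in 4 of 12 and AT1G09310 in 2 of 12, while AT5G19110 and AT1G47530 were called in all 12. Of the 21 calls at 3 h, 12 were kept in every alternative fit and 9 were lost in some, AT2G01020 among them in 3 of 12.

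The members were also looked up in lists of known genes. Of 25 lists of pathway genes and cell markers, 3 held a member each, and 47 of the 50 were in none. The share of all genes held by these lists was not computed, so nothing is read from this count. CYP94C1 was the member of the jasmonate synthesis and turnover list, of whose 12 tested genes 2 rose from 1 h to 3 h of dye and the other 10 were not called, with a median log2 fold change of 0.69. RRTF1 was the member of the ethylene and ERF list, of whose 31 tested genes 14 rose and 1 fell, with a median of 0.71. Of 13 tested green-tissue markers, RBCS1A among them, 1 fell and the other 12 were not called. Among 18 cytosolic ribosomal protein genes 1 fell and the other 17 were not called, with a median of -0.18, and none of them is a member.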

How the data were processed

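Roots were profiled with MARS-seq, a method that primes on poly(A) tails and reads transcripts near their 3′ end. Per the submitters' processing notes, bcl2fastq, cutadapt, STAR 2.4.2a, HTSeq and DESeq2 were used. The sources used here do not give the genome build, the annotation, the strand setting or the handling of molecular identifiers. The deposited table holds raw read counts of 14391 genes in every library, and each gene has at least 6 counts in some library. The authors' deposited table also gives a log2 fold change, an adjusted p-value and a mark per gene for RB 1 h over RB 3 h, printed here with the sign turned. A further 30 columns of scaled values per library were not used. No batch is given in the labels, and replicate letters were not used to pair the libraries in the main fit.

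Levels are CPM from the column sums, and ratios use mean CPM + 1. The members and the gene lists were chosen with earlier results of these data known. Counts were fitted with edgeR 4.0.16 in R 4.3.3: filterByExpr kept 9891 genes, all 50 members included, and set 4500 aside, with TMM scaling, robust dispersions and 1 coefficient per group over all 15 libraries (common dispersion 0.0425, 10 residual degrees of freedom). Quasi-likelihood tests were two-sided, with Benjamini-Hochberg adjustment over the 9891 genes and a threshold of 0.05. Comparisons among water, RB 2 h and RBH were used by the rule and have no test. The test was checked on simulated counts. Replicates are separate samples by the labels, and pairs differed by 3.42 to 12.4 times counting noise (chi-square per degree of freedom).

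Named members were those with the 10 highest RBH levels, the 10 highest ratios of RBH to RB 2 h, the smallest p between RB 3 h and RB 1 h (up to 8 in each direction), membership in a list, or a place next to a limit of the rule. Other members are given by mean ± SD. The relatives, and the 2-fold criterion for 1 high library, were chosen after the values were seen. Names and gene order come from TAIR10.1, which held 14356 of the loci. Promoter motifs and sequences were not analysed here, because the build of the counts is not stated. Alternatives were DESeq2 1.42.0, other scaling and filters, a replicate block and left-out libraries.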

Additional observations from a re-analysis of the deposited data

How the results depend on the processing

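The membership list moved with its settings. The estimated TMM factors were 0.931 to 0.948 in water, 0.969 to 1.08 at RB 2 h and 0.878 to 0.917 in RBH. Totals scaled by them lowered RB 2 h and raised RBH relative to water. The rule took 101 genes with TMM-scaled totals and 33 with 5 added to the mean CPM. With 1 of its 9 libraries left out it took 47 to 78 genes, 76 without RB 2 h replicate a (45 of the 50 among them), 78 without RB 2 h replicate c (46) and 47 without RBH replicate c (38). The ratio of RB 2 h to water moved by less than the spread between replicates in 344 of 350 recomputed values, and that of RBH to water in 347 of 350. Most of these values left out 1 library of 3, which can hardly move a mean by more than that spread. Nothing is therefore read from these 2 counts. From RB 1 h to RB 3 h, leaving out 1 library gave 1140 to 1588 called genes instead of 1755 and 3 to 6 called members instead of 8. Without both RB 1 h replicate b and RB 2 h replicate a, 4 members were called. For RB 1 h against water, leaving out 1 library gave 296 to 765 genes instead of 533 and 2 to 7 members instead of 5, and leaving out both libraries gave 1104 genes and 9 members. For RB 3 h against water the ranges were 2486 to 2778 genes instead of 3238 and 13 to 19 members instead of 21. The cause of these moves was not tested. Deviations of same-letter libraries had r = 0.247, 0.053 and 0.092 between RB 3 h and RB 1 h, against -0.292 to 0.128 for different letters. Against water, same-letter libraries had r = -0.209, -0.133 and -0.171 for RB 1 h and -0.107, 0.004 and -0.135 for RB 3 h. A replicate block gave 1545 genes and 6 members for RB 3 h against RB 1 h, 417 and 4 for RB 1 h against water, and 2985 and 19 for RB 3 h against water. Of the 8 members called between 1 h and 3 h, PMT5 was lost in 10 of 12 alternatives, MLP43 in 9, NOP56 in 5, AT3G53650 in 4, AT5G52020 in 3 and AT1G78990 in 2. AT5G62210 was lost in 5 of the 11 that gave it an adjusted p. No called member changed sign. Members with few counts, such as the loci before the 18S genes outside RBH, are limited by depth.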
